A study of Homo sapiens with 4 samples.

Results

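The genes followed here are 10 genes of epithelial junctions and splicing, chosen by exact symbol from the 43296 gene names of the deposited gene table. They encode the surface adhesion protein EPCAM, the adherens junction cadherin CDH1 (E-cadherin), the tight junction claudins CLDN3, CLDN4 and CLDN7, the recycling GTPase RAB25, the splicing regulators ESRP1 and ESRP2, the surface protease inhibitor SPINT1 and the transcription factor ELF3. All 10 had counts in 3 of the 4 libraries, and 8 had counts in untreated H1299. The samples were 2 human cancer lines, H1299 from a lung carcinoma of non-small cell type and HCT116 from a colorectal carcinoma, at passage 5 to 10. Each line was cultured either with the solvent DMSO or with DAC+SB, meaning 500 nM DAC (decitabine, an inhibitor of DNA methyltransferases) for 72 h and 500 nM SB939 (an inhibitor of histone deacetylases) for 18 h, in medium renewed every 24 h. Libraries with DMSO alone are called untreated below and those with DAC+SB treated. Each of the 4 combinations was 1 library of single cells, read from the 5′ end of polyadenylated RNA, and nothing in the labels names a second culture. Both lines are long-term cultures of tumour cells, so they stand for those cultures and not for lung or colon epithelium.

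Epithelial cells hold together through adherens junctions, where cadherins of neighbouring cells bind each other, and through tight junctions, where claudins seal the space between cells. ESRP1 and ESRP2 are RNA-binding proteins that set the epithelial exon choice of many transcripts, and their loss accompanies the change of epithelial cells to a mesenchymal state (epithelial-mesenchymal transition, EMT). Factors of the ZEB, SNAI and TWIST families drive that transition by repressing epithelial genes, and several of them bind the E-box sequence CACCTG in epithelial promoters. Promoters of several epithelial genes are also known to carry DNA methylation in mesenchymal tumour cells.

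Promoter sequences are shown for the claudins and for RAB25 and ELF3, since CLDN3 had its highest level in treated H1299, RAB25 fell and ELF3 rose in treated HCT116, and DAC acts on DNA methylation, which falls on CpG letters. Of the 10 genes, 6 were matched to RefSeq promoters on GRCh38.p14, with 8 windows. Of the CLDN7 windows the one with E-boxes is shown, chosen after they were found. Each line gives the 250 bases before the annotated RefSeq start, 5′ to 3′ on the gene's strand, with every E-box (CACCTG, read on the other strand as CAGGTG) in capitals.
CLDN3, chr7:73770271-73770520, minus strand: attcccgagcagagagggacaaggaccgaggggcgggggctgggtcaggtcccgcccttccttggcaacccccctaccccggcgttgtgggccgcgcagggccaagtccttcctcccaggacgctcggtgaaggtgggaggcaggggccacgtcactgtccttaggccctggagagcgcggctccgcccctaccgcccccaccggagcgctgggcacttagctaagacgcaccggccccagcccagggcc
CLDN4, chr7:73830746-73830995, plus strand: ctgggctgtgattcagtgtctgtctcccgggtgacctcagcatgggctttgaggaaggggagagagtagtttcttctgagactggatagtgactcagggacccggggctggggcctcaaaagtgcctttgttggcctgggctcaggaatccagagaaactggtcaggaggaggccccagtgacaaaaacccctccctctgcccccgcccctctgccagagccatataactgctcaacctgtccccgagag
CLDN7, chr17:7262479-7262728, minus strand: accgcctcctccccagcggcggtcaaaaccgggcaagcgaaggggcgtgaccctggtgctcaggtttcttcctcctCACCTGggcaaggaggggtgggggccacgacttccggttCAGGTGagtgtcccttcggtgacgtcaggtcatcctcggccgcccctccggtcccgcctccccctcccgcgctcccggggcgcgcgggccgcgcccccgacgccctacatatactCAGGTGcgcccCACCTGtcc
RAB25, chr1:156060910-156061159, plus strand: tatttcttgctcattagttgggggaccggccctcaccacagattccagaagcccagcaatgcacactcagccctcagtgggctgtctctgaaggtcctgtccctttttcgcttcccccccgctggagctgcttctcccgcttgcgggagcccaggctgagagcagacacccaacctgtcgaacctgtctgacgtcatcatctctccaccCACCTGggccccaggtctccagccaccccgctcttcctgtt
ELF3, chr1:202010337-202010586, plus strand: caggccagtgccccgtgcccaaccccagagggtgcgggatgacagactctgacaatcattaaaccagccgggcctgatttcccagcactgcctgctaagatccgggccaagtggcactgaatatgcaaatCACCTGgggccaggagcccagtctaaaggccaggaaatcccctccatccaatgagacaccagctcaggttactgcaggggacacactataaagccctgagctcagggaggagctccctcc

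The E-box was searched on both strands, as CACCTG on one and as CAGGTG on the other, and matches did not overlap. This CLDN7 window held 4 of them, with first bases at -174, -135, -20 and -9 from the start, and the other CLDN7 window held none. RAB25 held 1 at -41, ELF3 held 1 at -120, and 1 of the 2 SPINT1 windows held 1 at -26. The CLDN3 and CLDN4 windows held none. Of the 8 windows 4 held an E-box, against 17.5% of 35116 RefSeq promoter windows of the same length, and 0.464% of those held 3 or more. Those comparison windows were not filtered by chromosome. The number of CpG was 19 for CLDN3, 4 for CLDN4, 25 and 9 for the CLDN7 windows, 8 for RAB25, 4 for ELF3 and 35 and 22 for the SPINT1 windows, beside a median of 11 over all windows. These are letters in the reference, not measured binding or methylation.

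The 4 libraries held 3578 to 4327 cells, and their median depth was 15784.5 to 17369.5 counts per cell in 3 of them and 8449 in treated HCT116. Levels are CPM, a gene's count scaled to 1000000 counts of genes and transposable elements in its library, and levels are not ordered between genes. A marker list for H1299 (10 genes, among them VIM and AXL) summed to 3272 CPM in untreated H1299 and 1537 in treated H1299, against 253 and 355 in the corresponding HCT116 libraries. A list of 10 intestinal genes for HCT116 summed to 19.6 CPM in untreated HCT116 with 5 genes at 0, to 25.6 in treated HCT116 with 1 at 0, to 0.790 in untreated H1299 with 5 at 0, and to 7.96 in treated H1299 with none at 0. The intestinal factor CDX2 carried most of it in untreated HCT116 (875 counts, against 1, 18 and 249 counts in untreated H1299, treated H1299 and treated HCT116), while the intestinal markers GPA33, CDH17, LGR5, ASCL2 and NOX1 were at 0 there. Each pair of libraries shared 18 to 30 cell barcodes.

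With 1 library per group no test was possible. Intervals after values are 95% intervals of counting error only, unless named as ranges over draws. They are exact Poisson for CPM, exact conditional binomial for ratios and Clopper-Pearson for shares. A log2 ratio of 2 is a 4-fold difference. Genes are called risen or fallen only past 4-fold and when the library with the higher level holds 100 counts or more. That describes these libraries and has no replicate check. Some counts of a gene sit in numbered features, which the deposited table lists only from 10 counts in a library, so that small numbers of them can be missing.

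EPCAM, CLDN4, CLDN7, RAB25, ESRP1, ESRP2 and SPINT1 were highest in untreated HCT116, CDH1 and ELF3 in treated HCT116, and CLDN3 in treated H1299. All 10 were lowest in untreated H1299. Their counts summed to 1.27 CPM (1.01 to 1.58) in untreated H1299, 45.3 (43.7 to 47.0) in treated H1299, 238.0 (234 to 242) in untreated HCT116 and 132 (128 to 135) in treated HCT116. The sum was thus higher with DAC+SB in H1299 and lower in HCT116, and the lines were nearer to each other in the treated libraries.

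**Figure D1:**
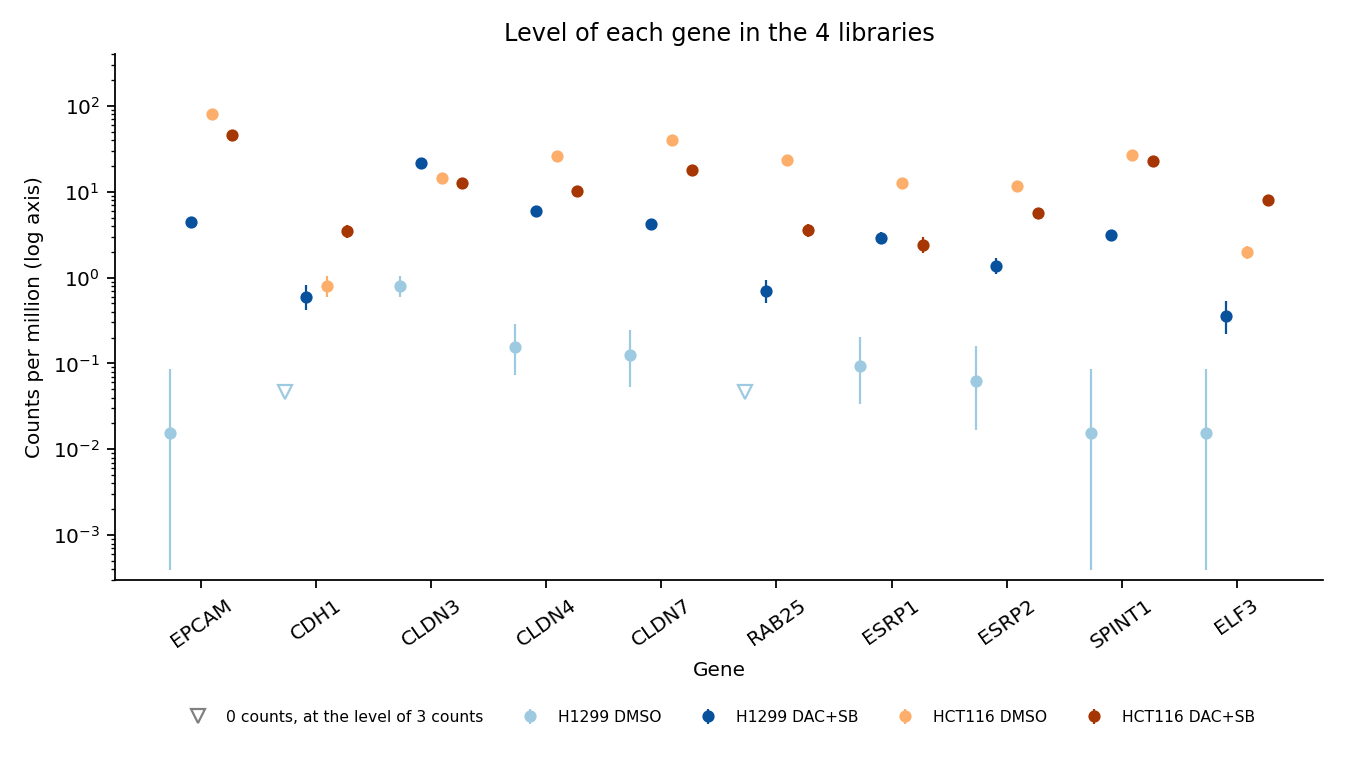
Level of each of the 10 genes (x axis) in CPM on a log axis, 1 point per library, with exact Poisson 95% intervals of counting error. Open triangles mark 0 counts, drawn at the level of 3 counts. Untreated H1299 (light blue) is lowest for every gene, and treated H1299 (dark blue) passes both HCT116 libraries only for CLDN3.

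EPCAM, a homophilic adhesion protein of the basolateral membrane (chromosome 2, 47345158 to 47387601 on GRCh38, GENCODE v29), had 1, 279, 5054 and 1759 counts in untreated H1299, treated H1299, untreated HCT116 and treated HCT116. These were levels of 0.0155, 4.47, 80.7 and 45.2 CPM, with no overlap of intervals between any neighbours in the order. EPCAM rose in H1299, by a log2 ratio of 8.17 (5.68 to 13.48) that rests on 1 count in the DMSO library. Its HCT116 log2 ratio was -0.84 (-0.92 to -0.76), short of 4-fold.

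CDH1, the cadherin that joins epithelial cells at adherens junctions (chromosome 16, 68737225 to 68835548), had few counts everywhere. In the same order of libraries it had 0, 37, 50 and 135 counts, or 0, 0.593, 0.798 and 3.47 CPM. Treated H1299 and untreated HCT116 did not differ beyond counting error. With 0 counts in untreated H1299, CDH1 was 12.7-fold higher with DAC+SB, taking 3 counts in that library as the limit and unlisted features as 0. The exact interval of this ratio began at 9.86-fold, and the 37 treated counts lie under the minimum. CDH1 rose in HCT116, by a log2 ratio of 2.12 (1.64 to 2.62). The numbered feature of CDH1, listed with 32 counts in treated HCT116 only, decided that call, since without it the log2 ratio was 1.73.

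The 3 claudins form part of the seal of tight junctions, and CLDN3 and CLDN4 are neighbours on chromosome 7 (73768997 to 73770270, and 73799542 to 73832693). All 3 rose in H1299, and none passed 4-fold in HCT116. CLDN3 had 51, 1354, 906 and 488 counts in the 4 libraries, or 0.790, 21.7, 14.5 and 12.5 CPM. It was the only one of the 10 genes with its highest level in treated H1299, where it stood at 150.0% (138 to 163) of the level in untreated HCT116. The CLDN3 log2 ratio was 4.78 (4.37 to 5.21) in H1299 and -0.21 (-0.37 to -0.05) in HCT116. The Poisson intervals of the 2 HCT116 libraries overlapped.

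CLDN4 had 10, 368, 1627 and 400 counts, or 0.155, 5.89, 26.0 and 10.3 CPM. Its log2 ratio was 5.25 (4.35 to 6.32) in H1299 and -1.34 (-1.50 to -1.18) in HCT116. Treated H1299 and treated HCT116 were close for CLDN4, with a log2 ratio of HCT116 over H1299 of 0.80 (0.59 to 1.01). When only features without a number were counted it was -0.16 (-0.45 to 0.12), with no difference beyond counting error. CLDN7 (chromosome 17, 7259903 to 7263983) had 8, 264, 2504 and 693 counts, or 0.124, 4.23, 40.0 and 17.8 CPM. The CLDN7 log2 ratio was 5.09 (4.09 to 6.32) in H1299 and -1.17 (-1.29 to -1.05) in HCT116. A further 1, 25, 182 and 60 counts stood under a name that joins CLDN7 with RP1-4G17.5 and were added only in an alternative.

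RAB25, a small GTPase that returns integrins and other cargo to the apical and leading membrane (chromosome 1, 156061160 to 156070514), had the lowest DAC+SB ratio of the 10 genes in HCT116. It had 0, 44, 1478 and 139 counts, or 0, 0.705, 23.6 and 3.57 CPM. RAB25 fell in HCT116, with a log2 ratio of -2.72 (-2.99 to -2.47). In H1299 its 44 treated counts against 0 give 15.2-fold, taking 3 counts as the limit, and the exact interval began at 11.8-fold. These 44 counts again lie under the minimum of 100. Treated H1299 reached 2.99% (2.16 to 4.03) of the untreated HCT116 level, or 9.35% over features without a number.

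The paralogs ESRP1 and ESRP2 fix the epithelial form of transcripts such as FGFR2 and CD44. The exon use of those transcripts was not analysed here. ESRP1 (chromosome 8, 94641074 to 94707466) had 6, 182, 786 and 94 counts, or 0.0930, 2.92, 12.5 and 2.41 CPM. It rose in H1299, with a log2 ratio of 4.97 (3.82 to 6.44), and fell in HCT116, with a log2 ratio of -2.38 (-2.70 to -2.07). ESRP1 was thus called in opposite directions in the 2 lines, and the treated libraries did not differ beyond counting error, with HCT116 over H1299 at -0.27 (-0.65 to 0.10).

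ESRP2 (chromosome 16, 68229111 to 68238102) had 4, 86, 722 and 220 counts, or 0.0620, 1.38, 11.5 and 5.65 CPM. Its HCT116 log2 ratio was -1.03 (-1.25 to -0.81), smaller in size than that of ESRP1 by more than both counting intervals. In H1299 the ESRP2 log2 ratio was 4.47 (3.07 to 6.38), from fewer than 100 treated counts.

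SPINT1, which inhibits the hepatocyte growth factor activator and the membrane protease matriptase (chromosome 15, 40844018 to 40858207), had 1, 194, 1659 and 888 counts, or 0.0155, 3.11, 26.5 and 22.8 CPM. It rose in H1299, with a log2 ratio of 7.65 (5.15 to 12.96) over 1 DMSO count, and stood at -0.22 (-0.33 to -0.10) in HCT116. ELF3, an ETS-family factor of epithelial differentiation (chromosome 1, 202007945 to 202017188), had 1, 22, 123 and 312 counts, or 0.0155, 0.352, 1.96 and 8.01 CPM. ELF3 rose in HCT116, with a log2 ratio of 2.03 (1.72 to 2.34). Its numbered feature went from 70 to 236 counts in HCT116 and its counts without a number from 53 to 76, so that the log2 ratio was 1.21 over the latter, below 4-fold. It was 1.90 without cells above 25% mitochondrial counts. In H1299 the ELF3 log2 ratio was 4.51 (1.88 to 9.87), from 22 treated counts and 1 untreated.

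**Figure D2:**
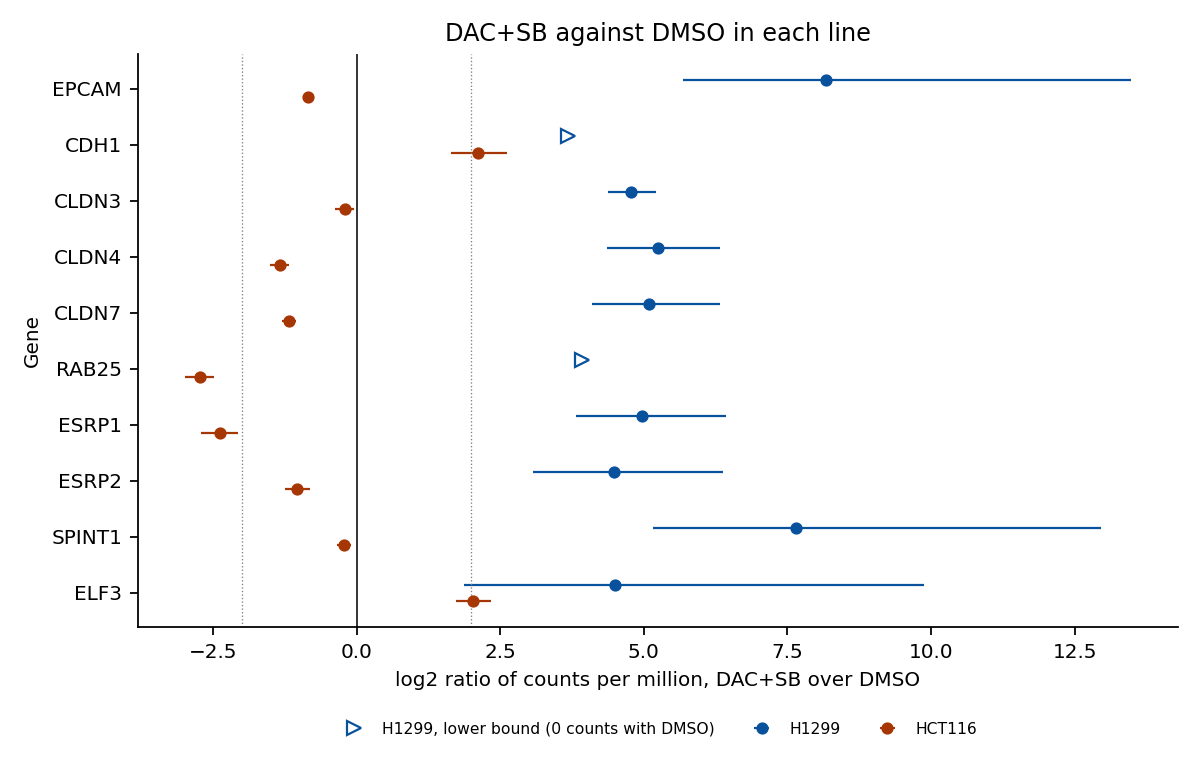
log2 ratio of CPM with DAC+SB over DMSO (x axis) for each gene (y axis) in H1299 (blue) and HCT116 (brown), with exact conditional binomial 95% intervals of counting error. Triangles are lower bounds where untreated H1299 had 0 counts, and dotted lines mark 4-fold. All 10 genes lie above 0 in H1299, whereas 8 lie below 0 and CDH1 and ELF3 above 0 in HCT116.

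Read against all genes, 6 of the 6 genes of the set with enough counts passed 4-fold upward in treated H1299, as did 11% of 14610 genes. None passed 4-fold downward, as did 0.349% of all genes. The median log2 ratio was 5.17 for these 6 and -0.07 for all genes. The 6 passed the minimum of 100 counts through the treated library, so their common direction adds nothing. The other 4 (CDH1, RAB25, ESRP2 and ELF3) also had ratios above 4-fold from 22 to 86 treated counts. In HCT116 all 10 had enough counts. There 2 passed 4-fold upward, as did 9.69% of 13451 genes, and 2 passed it downward, as did 3.72%, with a median log2 ratio of -0.93 beside -0.24 for all genes. CDH1 reached 100 counts only in the treated and ESRP1 only in the untreated HCT116 library, which fixed their direction.

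The lines were then compared under each condition. With DMSO, 9 genes of the set had enough counts and all 9 were at least 4-fold higher in HCT116, with log2 ratios between 4.19 (CLDN3) and 12.35 (EPCAM, over 1 H1299 count). Of all 13795 genes, 8.11% stood 4-fold or more above H1299 in HCT116 and 9.92% as far below. All 9 reached the minimum of 100 counts only through HCT116, with 0 to 51 counts in untreated H1299, so their common direction adds nothing. In the treated libraries, 7 of the 10 were at least 4-fold higher in HCT116 and none was as far below H1299, against 4.69% and 9.04% of 14764 genes. Of the 7, CDH1, RAB25, ESRP2 and ELF3 reached 100 counts only in HCT116, which fixed their direction. The median log2 ratio of the set was 7.54 with DMSO and 2.21 with DAC+SB, beside -0.11 and -0.30 for all genes. The log2 ratio was 4.51 (3.88 to 5.20) for ELF3, 3.34 for EPCAM and 2.88 for SPINT1. With numbered features counted only where both libraries list them, ELF3 stood at 2.47. CLDN7 (2.07) and ESRP2 (2.04) lay just past 4-fold. With numbered features counted only where both libraries list them, CLDN7 and ESRP2 stood at 1.31 and 1.85 and missed it. RAB25 stood at 0.55 (-0.20 to 1.29) over features without a number, an alternative chosen after seeing the data. ESRP2 also missed 4-fold in means over cells (1.99), without the cells above 25% mitochondrial counts (1.94) and without the 5% of cells with most counts (1.99). CLDN3 was the one gene higher in H1299 beyond counting error, at -0.79 (-0.94 to -0.64).

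The level in treated H1299 as a share of that in untreated HCT116 ranged from 2.99% for RAB25 to 150.0% for CLDN3 over all features. Over features without a number, an alternative chosen after seeing the data, it ranged from 6.27% for EPCAM to 188% for CLDN3. For CDH1 it was 74.2% (47.2 to 116), from 37 and 50 counts. CLDN4 and ESRP1 reached 22.7% (20.2 to 25.4) and 23.2% (19.7 to 27.3). The other members lay between 5.54% (EPCAM) and 17.9% (ELF3). The ELF3 share was 41.6% with numbered features counted only where both libraries list them, since that of ELF3 is not listed in H1299. The intestinal marker list moved in the same direction in H1299, from 0.790 to 7.96 CPM, and its part in these results was not tested. Of that list, AXIN2, a target of Wnt signalling, and LGALS4, an intestinal galectin, both rose past 4-fold in H1299 and carried most of its counts in the treated library. AXIN2 had 41 and 249 counts in untreated and treated H1299, a log2 ratio of 2.65 (2.17 to 3.16). LGALS4 had 3 and 100 counts, a log2 ratio of 5.11 (3.52 to 7.41), and its level of 1.60 CPM in treated H1299 was above the 0.0798 and 1.08 CPM of untreated and treated HCT116. CDX2 had 18 counts in treated H1299 and 875 in untreated HCT116.

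The same genes were counted cell by cell. Without thinning, 78 of 3578 untreated H1299 cells (2.18%) had a count of any of the 10 genes, against 1638 of 3726 treated H1299 cells (44.0%), 3210 of 3658 untreated HCT116 cells (87.8%) and 2420 of 4327 treated HCT116 cells (55.9%). The highest sum in 1 treated H1299 cell was 10. Since treated HCT116 was shallower, each cell was also thinned to 3300 counts, which left out 402 treated HCT116 cells and no other. Thinning is a random draw, so the median of 20 draws is given with the lowest and highest draw. The shares with any of the 10 genes were then 0.419% (0.279 to 0.615), 13.1% (12.1 to 14.2), 48.5% (46.6 to 49.4) and 32.1% (30.8 to 33.1) in the same order. No library held a second cell type that lacks the genes, so the share that free RNA gives within a library was not measured, and these are shares of cells with a count and not of cells that express a gene.

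EPCAM had shares of 0.0279%, 6.44%, 57.1% and 27.0% of cells without thinning. After thinning they were 0% (0 to 0.0279), 1.33% (1.05 to 1.74), 20.6% (19.5 to 22.1) and 12.6% (11.7 to 13.4). Taking 3 counts as the limit, 0 of 3578 cells allows a share of up to 0.0838% of cells with a count, which does not limit the share of cells that express the gene. CLDN3 had shares of 1.34%, 24.2%, 18.2% and 9.73% of cells without thinning, and 0.252% (0.0838 to 0.419), 6.33% (5.77 to 6.90), 4.52% (3.99 to 4.89) and 3.85% (3.41 to 4.31) after it. Its order over libraries was that of the CPM, with treated H1299 first. The ESRP1 shares after thinning were 0.0279%, 0.832% (0.671 to 1.34), 3.66% (3.03 to 3.99) and 0.790% (0.586 to 1.04), so the treated libraries of the lines were again close.

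After thinning, no untreated H1299 cell had 2 or more of the 10 genes in any of the 20 draws. The share of such cells was 0.725% (0.564 to 0.939) in treated H1299, 14.7% (13.997 to 16.1) in untreated HCT116 and 5.99% (5.55 to 6.73) in treated HCT116. The variance over the mean of the summed thinned counts, which is 1 for pure counting error, was 1.09 (1.04 to 1.15), 1.35 (1.28 to 1.42) and 1.27 (1.23 to 1.36) in these libraries. In untreated HCT116, a median of 60.8% (54.3 to 62.8) of cells with RAB25 had a count of another of the 10 genes, against 44.8% (42.5 to 45.5) of cells without it. For ESRP1 the shares were 59.6% (54.3 to 65.9) and 46.5% (44.5 to 47.4).

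Of the 8 genes found in at least 100 thinned cells of untreated HCT116, 6 had a higher share among cells with the gene in every draw, and CLDN3 and ESRP2 did not. In treated HCT116 this held for 4 of 6 genes, EPCAM, CLDN3, CLDN4 and CLDN7. The draws thin the same cells again, so agreement over draws does not cover counting error. In 1 draw, the Clopper-Pearson intervals of the shares with and without the gene overlapped there for EPCAM, CLDN3 and CLDN7, and not for CLDN4. In untreated HCT116 they overlapped for CLDN4, and not for EPCAM, CLDN7, RAB25, ESRP1 or SPINT1. For SPINT1 that draw gave the highest share with the gene of the 20 draws, 55.3%, beside a median of 48.9%. For CLDN4 it gave 48.3% in untreated HCT116, beside a median of 51.7%, and 44.4% in treated HCT116, beside 39.8%. Such intervals were not made for the other draws, so these overlaps hold for that draw only. In treated H1299 only CLDN3 was found in at least 100 cells, and the shares were 7.71% (5.35 to 11.8) with it and 7.28% (6.44 to 7.90) without it. The difference in treated H1299 changed sign between draws. Cells of 1 library are not replicates, and these shares describe that library.

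**Figure D3:**
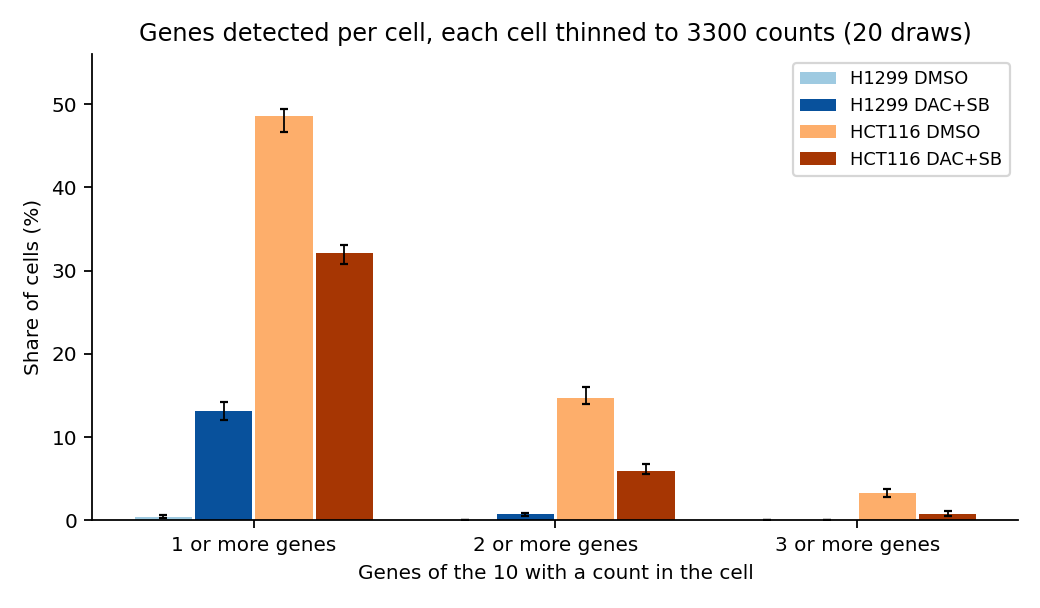
Share of cells (y axis, percent) with a count of 1 or more, 2 or more and 3 or more of the 10 genes (x axis), by library, after each cell was thinned to 3300 counts. Bars are the median of 20 random draws and whiskers run from the lowest to the highest draw. The share with 1 or more is 0.419% in untreated H1299, 13.1% in treated H1299, 48.5% in untreated HCT116 and 32.1% in treated HCT116.

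Treated HCT116 was the shallowest library and had 1086 of 4327 cells above 25% mitochondrial counts. The 10 genes summed to 128 CPM (119 to 137) in those cells and to 132 (129 to 136) in the rest. In untreated HCT116 the sums were 190.0 CPM (180 to 201) in 364 such cells and 244 (240 to 248) in the rest. The sum was thus lower in treated than in untreated HCT116 among the cells at or below 25% as well.

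Other genes came from 8 lists with 60 genes, of epithelial adhesion, polarity, splicing and transcription and including 6 EMT repressors. Values below are log2 ratios of treated over untreated. In H1299, 43 of them had enough counts, of which 11 passed 4-fold upward and none downward, where 11% and 0.349% of all genes did. In HCT116, 1 of 46 (the repressor SNAI1) passed upward and 5 downward, where 9.69% and 3.72% of all genes did. The medians were 0.60 and -0.12, beside -0.07 and -0.24 for all genes.

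Of the tight junction genes with enough counts, 4 of 10 rose in H1299. TJP3, a scaffold protein under the junction, was highest at 5.19, followed by MARVELD3, a tetraspan junction protein, at 4.60. LSR, a protein of tricellular junctions, was the lowest of the 4, at 2.99. In HCT116 MARVELD2 (tricellulin) fell, at -2.52. Of the adherens junction genes, JUP (plakoglobin) rose in H1299, at 4.08, from 43 to 706 counts, and CTNND1 (p120-catenin, which stabilizes cadherins) fell in HCT116, at -2.02. CTNNB1 and CTNNA1, the catenins that link cadherins to actin, stood between -0.54 and 0.11 in both lines.

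Of the 6 desmosome genes 3 fell in HCT116: the plakophilin PKP3 at -2.72, the desmocollin DSC2 at -2.17 and the desmoglein DSG2 at -2.12. In H1299 DSP (desmoplakin) rose, at 2.67. Of polarity and recycling genes, RAB17, an epithelial trafficking GTPase, rose in H1299 (0 to 112 counts), by at least 5.27 on the log2 scale if unlisted features are taken as 0, and LLGL2 rose at 2.11. None of the 8 listed genes passed 4-fold in HCT116.

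SPINT2, the sister inhibitor of SPINT1, rose in H1299 from 70 to 3471 counts, at 5.68, and was at -1.04 in HCT116. The protease ST14 (matriptase), which SPINT1 inhibits, went from 2 to 50 counts in H1299, under the minimum, and was at -0.84 in HCT116. Among the other splicing regulators RBM47, an RNA-binding protein of epithelial cells, rose in H1299 (0 to 282 counts), by at least 6.60 on the log2 scale if unlisted features are taken as 0. QKI, which favours mesenchymal exon choice, was at -0.99 in H1299 and -1.41 in HCT116. Of the 10 epithelial transcription factors listed, 3 had enough counts in each line and none of these passed 4-fold. The others lay under the minimum, and GRHL2 had 0, 0, 37 and 10 counts. In untreated and treated H1299, OVOL2 had 0 and 60 counts, FOXA2 2 and 32, GRHL3 0 and 25 and OVOL1 0 and 21. EHF had 0 and 7 there, and FOXA1 84 and 86.

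Of the EMT repressors, SNAI1 rose in both lines, at 3.43 in H1299 (44 to 458 counts) and 2.15 in HCT116 (494 to 1358 counts). ZEB1 stood at -0.95 in H1299 and at -0.12 in HCT116. ZEB2 had 1309 and 888 counts in H1299, and 0 and 55 in HCT116. The 6 repressors summed to 59.9 CPM (58.0 to 61.8) in untreated H1299, 48.1 (46.4 to 49.9) in treated H1299, 26.0 (24.7 to 27.3) in untreated HCT116 and 62.2 (59.8 to 64.7) in treated HCT116. The sum hides members that differ, since SNAI1 alone held 34.9 of the 62.2 CPM in treated HCT116 and 7.34 of the 48.1 CPM in treated H1299.

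**Figure D4:**
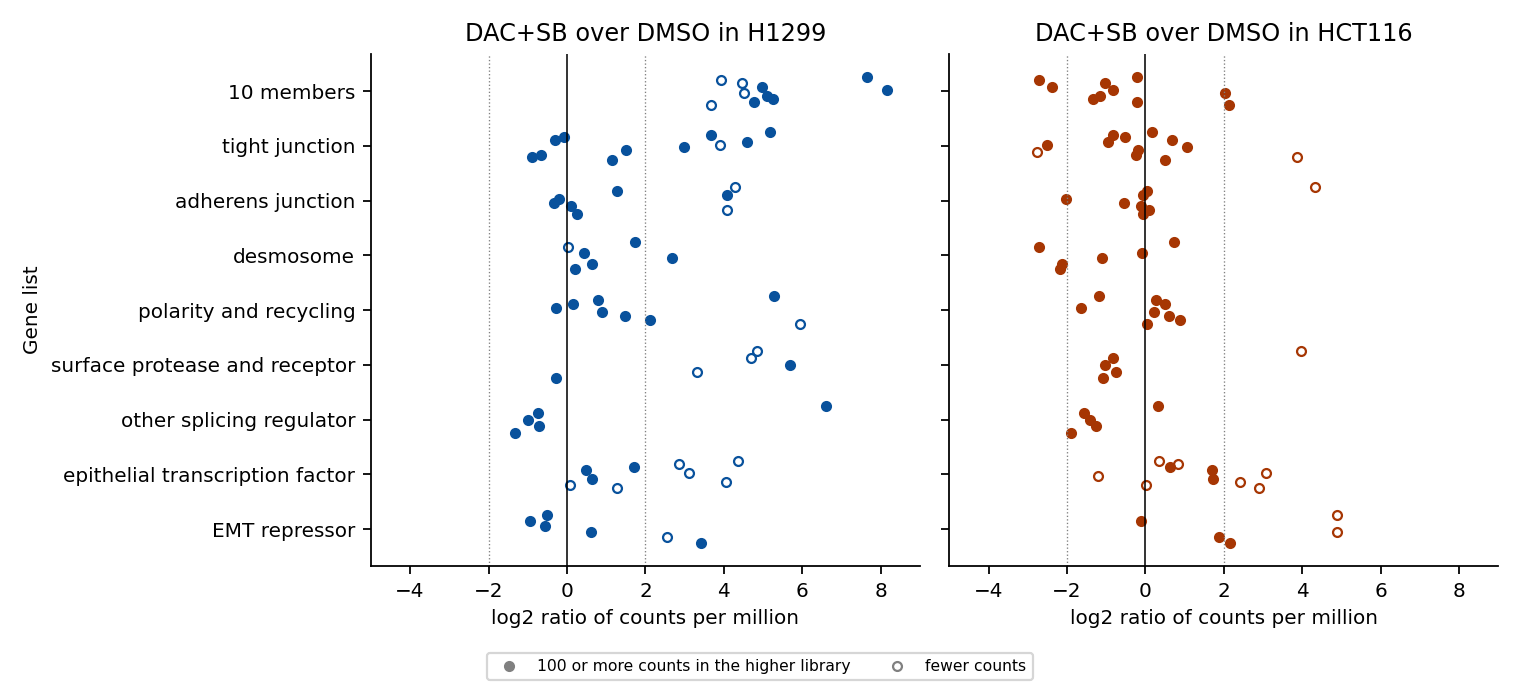
log2 ratio of CPM with DAC+SB over DMSO (x axis) for the 10 members and for each gene of 8 further lists (y axis), in H1299 (left, blue) and HCT116 (right, brown). Filled points had at least 100 counts in the higher library, open points had fewer, and dotted lines mark 4-fold. In H1299 the 10 members lie between 3.67 and 8.17, and in HCT116 between -2.72 and 2.12, with a gene at 0 counts in 1 library drawn at its bound.

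The mean pattern of the 10 genes over the 4 libraries, as log2 of CPM plus 1 with each gene's mean removed, was compared over 15505 genes. The 5 nearest genes by Euclidean distance were AC073046.4, ZNF711, DHRS4L2, CBLC and SYT7, at distances of 0.235 to 0.360. CBLC, a ubiquitin ligase of the CBL family, had 0, 89, 679 and 266 counts, and the zinc finger gene ZNF711 had 6, 114, 658 and 311. ESRP2 was the nearest of the 10 genes themselves, at 0.497, and CDH1 the farthest, at 2.14. With 4 libraries this only describes a shape.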

How the data were processed

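The authors deposited whole-number counts per gene and cell, and per transposable element and cell, listed from 1 count upward. Per the submitters' processing notes CASAVA, STAR and GRCh38 (hg38) were used. The counting tool, the annotation, the strand setting and the cell filter were not given in the sources used here, nor whether counts are of unique molecular identifiers, so overlapping genes and paralogs may share reads. Cells were assigned to libraries by the ending of the cell name (15289 cells, all assigned). The 4 libraries held 64524196 (untreated H1299), 62428673 (treated H1299), 62639099 (untreated HCT116) and 38927267 (treated HCT116) counts. Counts were summed over all features of a gene and divided by the library's gene and transposable element counts. Names that join several genes (2419 of 43296) were left out. A gene at 0 was set to 3 counts for a bound, which leaves out counting error in the other library. Cells were thinned by a hypergeometric draw to 3300 counts in 20 seeded draws, a number set after a single draw proved unstable, and no doublet caller was run. The members and lists were chosen with earlier results of these data known. Named genes were all 10 members, and of each list past 4-fold the 2 highest and 2 lowest, with further list genes named for their role. Some list genes are not reported here. No test was made. Python 3.11.15, numpy 2.4.6, scipy 1.17.1 and pandas 2.3.3 were used, and the ratio code was tested on simulated data. Gene positions are from GENCODE v29. Alternatives were the denominator, joined names, numbered features, left-out cells, means over cells, the count minimum and the fold.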

Additional observations from a re-analysis of the deposited data

Results flagged for a closer look

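With 1 library per group, 8 of the 10 genes were higher with DAC+SB in H1299 and lower in HCT116. The counting-error interval of the HCT116 log2 ratio of CLDN3 was -0.37 to -0.05, but it included 0 with gene counts alone as the denominator (-0.13, -0.29 to 0.03) and over features without a number (-0.09, -0.31 to 0.13). Of these, 6 had enough counts in both lines, and they reached them in H1299 only through the treated library, which fixed their direction there. RAB25 and ESRP2 had fewer than 100 counts in H1299. Of all 12575 genes with enough counts in both lines, 14.1% were higher in treated H1299 and lower in treated HCT116, and 60.8% were lower in treated HCT116. The difference between the lines was not tested, as there were no replicates. Subtracting the log2 ratio in HCT116 from that in H1299 gave 9.01 (6.44 to 14.40) for EPCAM, 7.86 (5.25 to 13.29) for SPINT1 and 7.35 (5.89 to 9.14) for ESRP1. It was 6.59 (5.53 to 7.82) for CLDN4, 6.26 (5.14 to 7.61) for CLDN7, 5.50 (3.87 to 7.63) for ESRP2 and 4.98 (4.42 to 5.58) for CLDN3. For RAB25 it was 6.65 with 3 counts in place of its 0 in untreated H1299, and no interval was made. The bounds in brackets are the differences between the far ends of the exact intervals of the 2 ratios and cover counting error only. For CLDN3 and SPINT1 the HCT116 log2 ratios of -0.21 and -0.22 did not differ from the median of all genes, -0.24, beyond counting error. Over features without a number SPINT1 stood at -0.53 (-0.68 to -0.39). CDH1 and ELF3 were higher with DAC+SB in both lines.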

How the results depend on the processing

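No paired analysis was possible because each group is 1 library. The log2 ratios of the 10 genes kept their direction under every alternative run, except CLDN4 between the treated lines. That ratio went from 0.80 to -0.16 (-0.45 to 0.12) over features without a number, an alternative chosen after seeing the data. The latter was no difference beyond counting error. With the count minimum and the fold kept, the calls that ended in HCT116 were CDH1 and ELF3. Between the treated lines they were CLDN7, ESRP2 and RAB25, with the values above. At a minimum of 1000 counts the only calls left were CLDN3 in H1299, RAB25 in HCT116 and EPCAM between the treated lines. Between the lines with DMSO, EPCAM, CLDN4, CLDN7, RAB25 and SPINT1 were left. The gene counts depended on the minimum and the fold. HCT116 over H1299 with DMSO had 1119 genes higher and 1368 lower, and with at least 10 counts 2221 and 2631, with at least 1000 counts 266 and 389, and at 2-fold 2092 and 2833. HCT116 over H1299 with DAC+SB had 692 and 1334, then 2004 and 2599, 139 and 401, and 1802 and 3781. DAC+SB over DMSO in H1299 had 1612 and 51, then 5016 and 206, 200 and 28, and 2673 and 1072. In HCT116 it had 1304 and 500, then 4853 and 772, 170 and 252, and 2192 and 2706. Over features without a number the higher genes numbered 312 between the treated lines, 1036 in H1299 and 627 in HCT116, and 794 in HCT116 with numbered features listed in both libraries. The median of the members between the treated lines was 2.21, or 1.85 with numbered features listed in both and 1.58 without numbered features. With at least 1000 counts it was 1.27, from EPCAM (3.34) and CLDN3 (-0.79) alone. In HCT116 with DAC+SB over DMSO the median was -0.93, or -1.17 with at least 1000 counts, which left EPCAM, CLDN4, CLDN7, RAB25 and SPINT1. Thinning moved the share of cells beyond its counting interval for 38 pairs of gene and library, by the median draw, and not for CDH1 and RAB25 in untreated H1299, both at 0. Thinning removes counts, so lower shares follow from it, and this number says nothing about the order of the libraries. Counts of 0 to 51 in untreated H1299 limit the precision of every H1299 ratio.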

Other observations

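Genes of the H1299 marker list, which are typical of mesenchymal cells, also moved in HCT116 with DAC+SB. The intermediate filament gene VIM went from 2947 to 10321 counts, a log2 ratio of 2.49. The N-cadherin gene CDH2 had 0 and 156 counts, a rise of at least 6.39 on the log2 scale if unlisted features are taken as 0. The receptor kinase gene AXL and the caveolin gene CAV1 fell, at -3.36 and -2.17. Of all genes with enough counts, 9.69% rose and 3.72% fell past 4-fold. AXL also fell in H1299, at -3.26, whereas VIM, at -0.99, and CDH2, at -0.18, did not pass 4-fold there.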
